A study of Mus musculus with 21 samples.

Results

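This account compares 2 ways of disturbing RNA silencing in mouse embryonic stem cells: a peptide that binds every Argonaute protein, and an edited line that lacks Ago2 alone. The libraries were chosen by their labels, T6B_WT replicates 1 to 3 and Ago2KO_empty replicates 1 to 3, which are 6 of the 21 libraries of the series. All cells derive from one parental line of 129S6/SvEvTac background with a GFP reporter that carries TRIM71 binding sites (GFP_5xT71BS) and stable expression of FLAG-tagged Cas9. T6B_WT is that unedited parental line transfected with pCIP FH-T6B_WT::mCherry, and Ago2KO_empty is the line labelled Ago2-/- transfected with an empty plasmid. Both groups belong to Experiment 2, which also holds T6B_MUT (the parental line with the mutant peptide, pCIP FH-T6B_MUT::mCherry) and Trim71KO_empty (the Trim71-/- line with empty plasmid). Experiment 1 holds untransfected parental cells (W), Trim71KO and Ago2KO, again with 3 libraries a group. Every group thus shares the reporter and Cas9, and the labels do not state how many clones stand behind an edited line. T6B_WT and Ago2KO_empty differ in both genotype and plasmid, and unedited cells with the empty plasmid were not analysed here, so the effects of genotype and plasmid on their difference cannot be told apart.

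Argonaute proteins carry microRNAs to partly complementary sites in mRNAs, mostly in 3′ UTRs. Proteins of the TNRC6 family (GW182) then bind Argonaute through tryptophan residues and bring in deadenylase complexes, which shorten the poly(A) tail and lead to translational repression and decay. AGO2 is the only mouse Argonaute that readily cuts a fully matched RNA, while AGO1, AGO3 and AGO4 also load microRNAs and bind TNRC6 proteins. The T6B peptide is an Argonaute-binding stretch of TNRC6B that lacks the silencing part, so it occupies all Argonautes in place of the endogenous TNRC6 proteins. The comparison asks what a block of all Argonautes and the loss of one of them have in common, and what is particular to each.

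The targeted gene was examined first, in CPM, counts scaled to a common library size and composition. Ago2 (ENSMUSG00000036698, chromosome 15, 73095844 to 73184935, minus strand) was at 185, 163 and 170.1 CPM in T6B_WT replicates 1 to 3 and at 87.4, 167 and 45.6 CPM in the libraries labelled Ago2KO_empty. Replicate 2 of Ago2KO_empty therefore lay inside the range of T6B_WT and above all 3 T6B_MUT libraries (113, 143 and 112 CPM). At this gene that goes against its label, while the other 2 libraries were lower than every T6B_WT library. At Mccc2 (3.90, 4.30 and 4.52 CPM) and Aass (16.5, 17.1 and 17.8 CPM), replicate 2 lay with the other Ago2KO_empty libraries. Both genes were chosen for not overlapping between the groups. The reason for the Ago2 level of replicate 2 was not tested. In Experiment 1, Ago2 was at 41.9 ± 1.94 CPM in Ago2KO and 142 ± 9.62 CPM in W (SD, n = 3 each). Across the 6 libraries the log2 fold change of T6B_WT over Ago2KO_empty was 0.79 (SE 0.38; edgeR quasi-likelihood test, adjusted p = 0.252), and without Ago2KO_empty replicate 2 it was 1.39 (adjusted p = 0.0195). Replicates are numbered in the labels, and results that rest on that library are given with and without it.

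The 3 Ago2KO_empty libraries also differed from each other in other measures. Among the 12696 genes whose mean log2 CPM reached 2, the highest and lowest replicate differed by at least 2-fold for 297 genes (2.34%) in Ago2KO_empty, against 5 in T6B_WT, 1 in T6B_MUT and 64 in Trim71KO_empty. The non-coding RNA Gm26917 held 0.942%, 3.42% and 0.711% of the counts in Ago2KO_empty replicates 1 to 3, so replicate 2 was high. Genes with a deposited length of at least 5541 bases had median log2 ratios to the T6B_MUT mean of 0.13, 0.20 and 0.02 in Ago2KO_empty and 0.03, 0.03 and 0.09 in T6B_WT, and here replicate 3 was the Ago2KO_empty library nearest to T6B_MUT. The part of these differences in the results below was not tested beyond leaving libraries out. Library totals were 40.3 M, 44.2 M and 38.1 M counts in T6B_WT and 40.7 M, 38.2 M and 38.6 M in Ago2KO_empty.

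The other genes of the effector complex are shown per library in the plot of Argonaute and TNRC6 genes. Ago1 (83.8, 79.3 and 80.3 CPM in T6B_WT, 62.1, 82.5 and 52.7 in Ago2KO_empty) overlapped between the groups through replicate 2 of Ago2KO_empty. Its log2 fold change was 0.30 (adjusted p = 0.149; 0.51 and 0.000487 without that library). Both groups had more Ago1 than T6B_MUT, with log2 fold changes of 0.77 for T6B_WT and 0.47 for Ago2KO_empty (adjusted p = 0.00087 and 0.0132, the 2 comparisons sharing T6B_MUT). Ago3 (25.3, 20.6 and 26.7 against 40.5, 54.5 and 21.9 CPM) varied more than 2-fold among the Ago2KO_empty libraries and did not pass the test (log2 fold change -0.69, adjusted p = 0.198), but was lower in T6B_WT without Ago2KO_empty replicate 3 (-0.96, adjusted p = 0.002). Ago4 stayed near 1 CPM in all 6 libraries, at 1.03, 0.925 and 0.806 and 1.03, 0.931 and 0.909. Per kilobase of the deposited gene length, the mean level in T6B_WT was 12.3 CPM for Ago2, 9.99 for Ago1, 1.46 for Ago3 and 0.133 for Ago4, so Ago2 and Ago1 made up most of the Argonaute mRNA.

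**Figure D1:**
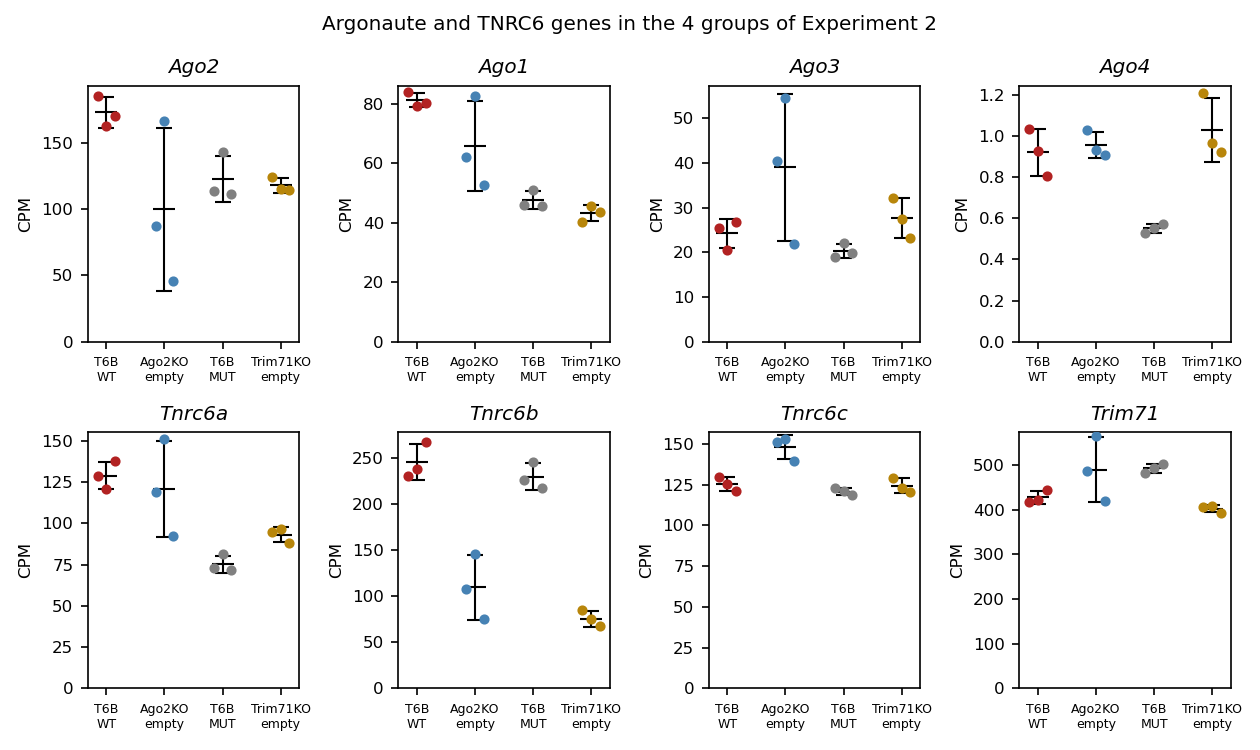
CPM of the 4 Argonaute genes, the 3 TNRC6 genes and Trim71 in each library of Experiment 2 (points), with the mean and SD of 3 libraries (bars); the vertical axes start at 0. Ago2 in Ago2KO_empty spans 45.6 to 166.6 CPM, and Tnrc6b is above 200 CPM only in the 2 groups with a T6B plasmid.

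Among the TNRC6 genes, Tnrc6b (ENSMUSG00000047888, chromosome 15, 80711313 to 80941085, plus strand) was higher in T6B_WT, at 231, 238 and 268 CPM against 108, 145 and 75.4 CPM in Ago2KO_empty (log2 fold change 1.17, SE 0.21, edgeR adjusted p = 0.0105; 0.0817 when these 2 groups were fitted alone). T6B_MUT was as high, at 227, 245 and 217 CPM, and Trim71KO_empty, which also had the empty plasmid, was low at 84.8, 74.8 and 67.6 CPM. Both peptide plasmids encode a TNRC6B fragment, and whether reads from them were counted in this gene was not tested. Tnrc6a did not pass the test (128, 121 and 138 against 119, 151 and 92.5 CPM), with a 95% interval of -0.21 to 0.40 on the log2 scale, but was called higher in T6B_WT without Ago2KO_empty replicate 2 (0.30, adjusted p = 0.0443). Tnrc6c was slightly higher in Ago2KO_empty (151, 153 and 139 against 129, 126 and 121 CPM; log2 fold change -0.24, adjusted p = 0.0185). That call was lost without T6B_WT replicate 2, T6B_WT replicate 3 or Ago2KO_empty replicate 1 (adjusted p = 0.0919, 0.0684 and 0.104). Of the 7 genes, 1 was called in each direction, and 4 were called higher in T6B_WT without Ago2KO_empty replicate 2. Without replicate 3 of that group, 1 was higher in T6B_WT and 2 were higher in Ago2KO_empty. Trim71, not edited in either group, was at 417, 421 and 445 CPM in T6B_WT and 486, 564 and 419 in Ago2KO_empty, and was called higher in Ago2KO_empty without replicate 3 of that group (-0.28, adjusted p = 0.00776).

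Over the whole transcriptome the 2 groups were close. Of 21505 genes tested, 1936 (9.0%) were called at an adjusted p under 0.05 (edgeR quasi-likelihood test), 871 (4.05%) higher in T6B_WT and 1065 (4.95%) higher in Ago2KO_empty. Differences of at least 1 log2 unit were found for 63 genes higher in T6B_WT (0.293%) and 143 higher in Ago2KO_empty (0.665%). Without Ago2KO_empty replicate 2, 1682 genes were called. The count was 3969 without Ago2KO_empty replicate 3, 733 without replicate 1 of that group, 731 and 1027 without T6B_WT replicates 2 and 1, and 926 when the 2 groups were fitted alone. Most genes could also be placed within a bound, which a missed p alone does not show. The 95% interval of the log2 fold change lay inside 1.5-fold either way for 12967 genes (60.3%), and for 88.6% of the 12696 genes whose mean log2 CPM reached 2, against 19.5% of those below. Of the called genes, 854 (3.97% of all) had their interval inside that bound. A further 12113 (56.3%) were inside it and not called, and 7456 (34.7%) were neither called nor inside it, so for these neither likeness nor difference was shown. Against T6B_MUT, which both share as control, 3437 genes (16.0%) were called for T6B_WT and 6201 (28.8%) for Ago2KO_empty.

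**Figure D2:**
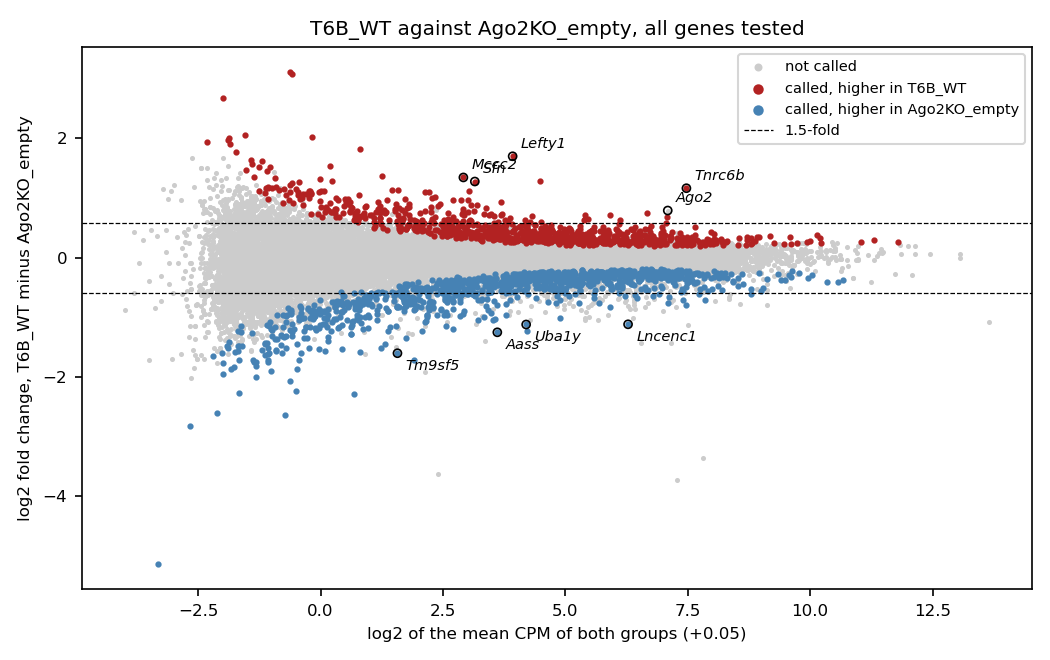
Log2 fold change of T6B_WT over Ago2KO_empty for each gene tested (vertical) against the log2 of the mean CPM of both groups (horizontal); red and blue points are the 871 and 1065 called genes, dashed lines mark 1.5-fold. Named genes are circled, and Ago2 is circled but grey because it was not called.

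The 12 genes with the largest differences in favour of T6B_WT included both Lefty genes. Lefty1 (ENSMUSG00000038793, chromosome 1, 180935022 to 180938400, plus strand), a secreted antagonist of Nodal, was at 24.3, 22.9 and 22.1 CPM in T6B_WT and 5.69, 7.20 and 8.47 CPM in Ago2KO_empty. T6B_MUT lay between them at 12.6, 12.9 and 12.9 CPM, so T6B_WT was above and Ago2KO_empty below this control. Ago2KO_empty differs from T6B_MUT in both genotype and plasmid. Trim71KO_empty, which also had the empty plasmid, was lower still at 2.06, 2.04 and 3.57 CPM, so a low level was not particular to Ago2KO_empty. The log2 fold change between T6B_WT and Ago2KO_empty was 1.70 (SE 0.16, edgeR adjusted p = 2.28e-05), made of 0.85 for T6B_WT and -0.85 for Ago2KO_empty against T6B_MUT. Its neighbour and relative Lefty2 (ENSMUSG00000066652, chromosome 1, 180893108 to 180899103, plus strand) was at 30.3, 31.5 and 32.4 CPM against 11.6, 12.8 and 14.4 CPM (log2 fold change 1.28, SE 0.20, adjusted p = 0.00436). Here T6B_MUT, at 28.3, 25.4 and 30.2 CPM, was near T6B_WT, and Trim71KO_empty was low at 4.06, 6.13 and 8.96 CPM. In Experiment 1 both genes were lower in Ago2KO than in W, with log2 fold changes of -0.83 and -0.72 (adjusted p = 0.00737 and 0.00447).

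Mccc2 (ENSMUSG00000021646, chromosome 13, 99948530 to 100015639, minus strand), a subunit of the carboxylase for leucine breakdown, had the second largest difference, at 10.1, 11.5 and 10.7 CPM in T6B_WT and 3.90, 4.30 and 4.52 CPM in Ago2KO_empty (log2 fold change 1.35, SE 0.10, edgeR adjusted p = 2.58e-07). It was also lower in Ago2KO than in W, by a log2 fold change of -1.88. Of the epithelial genes among the 12, Sfn, which encodes the 14-3-3 sigma protein of epithelia, was at 13.4, 12.9 and 11.2 CPM against 5.15, 4.71 and 5.61 CPM (1.28, adjusted p = 1.72e-06), and the tight junction gene Cldn6 at 6.41, 7.65 and 5.98 CPM against 3.36, 3.01 and 3.53 CPM (1.02, adjusted p = 4.06e-05). For all 3 genes, T6B_MUT was nearer to T6B_WT than to Ago2KO_empty, with means of 13.8, 15.2 and 8.72 CPM. So was Trim71KO_empty, with means of 11.7, 10.8 and 9.35 CPM.

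Stra8, a gene of entry into meiosis, was at 10.7, 10.9 and 11.9 CPM in T6B_WT and 3.95, 5.69 and 5.84 CPM in Ago2KO_empty (1.11, adjusted p = 3.03e-05). Fam174b was at 5.72, 5.91 and 6.19 against 2.77, 2.76 and 2.75 CPM, and Anxa3, an annexin that binds membranes with calcium, at 7.49, 10.04 and 8.27 against 4.39, 3.83 and 4.94 CPM. In Trim71KO_empty the means of Stra8, Fam174b and Anxa3 were 6.13, 3.65 and 5.70 CPM, nearer to Ago2KO_empty than to T6B_WT. Anxa3 was higher in T6B_WT than in T6B_MUT (1.03), whereas Ago2KO_empty differed from T6B_MUT by 0.06 (adjusted p = 0.767; 95% interval -0.21 to 0.33). The remaining 3 of the 12 genes, Gm21312, Gm4340 and Gm21293, are near-identical copies in one cluster on chromosome 10, so their counts may be shared. Gm4340 was at 10.4, 11.3 and 10.1 CPM against 5.44, 5.09 and 5.82 CPM, and both groups were above T6B_MUT (2.16, 2.85 and 1.94 CPM). Of the 12 genes, 9 were lower and 1 (Tnrc6b) was higher in Ago2KO than in W, where 7.78% and 10.2% of genes were lower and higher. The 9 include Gm21312, Gm4340 and Gm21293, which may not count as separate genes because their counts may be shared. These 3 copies were lower in Ago2KO than in W but higher in Ago2KO_empty than in T6B_MUT, so their directions in the 2 experiments were opposite. All 12 calls held in each fit that left out 1 of the 6 libraries.

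Among the 12 genes with the largest differences in favour of Ago2KO_empty, Tm9sf5 (ENSMUSG00000079584, chromosome X, 57409154 to 57488767, plus strand) was at 4.44, 4.65 and 4.08 CPM in Ago2KO_empty and 1.65, 1.22 and 1.48 CPM in T6B_WT (log2 fold change -1.60, SE 0.15, edgeR adjusted p = 5.95e-06). Aass (ENSMUSG00000029695, chromosome 6, 23072173 to 23132986, minus strand), which encodes the enzyme that starts lysine breakdown, was at 16.5, 17.1 and 17.8 CPM against 6.73, 7.49 and 7.36 CPM (-1.251, SE 0.11, adjusted p = 2.34e-06). Tm9sf5 reached the mean level required of named genes only through Trim71KO_empty, where its mean was 19.6 CPM. In both genes all Ago2KO_empty libraries were at least 2-fold above every T6B_WT library. Aass was above T6B_MUT in both groups, by log2 fold changes of 1.74 in Ago2KO_empty and 0.49 in T6B_WT, and it was higher in Ago2KO than in W (1.5, adjusted p = 2.45e-08).

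Lncenc1 (ENSMUSG00000078952, chromosome 13, 97434970 to 97497007, plus strand), a long non-coding RNA of naive embryonic stem cells, was at 107, 116 and 95.4 CPM in Ago2KO_empty and 49.9, 46.9 and 50.3 CPM in T6B_WT (-1.12, SE 0.07, adjusted p = 1.3e-07). T6B_WT did not differ detectably from T6B_MUT (-0.06, 95% interval -0.22 to 0.09), while Ago2KO in Experiment 1 was above W by 1.00. Uba1y (ENSMUSG00000069053, chromosome Y, 818649 to 844224, plus strand), the Y-linked copy of the ubiquitin-activating enzyme, was at 24.9, 25.5 and 24.96 CPM against 10.7, 12.97 and 10.9 CPM and was higher in Ago2KO than in W as well (1.38). Dazl, an RNA-binding protein of germ cells, was at 42.2, 36.2 and 39.5 CPM against 18.2, 18.7 and 21.97 CPM. It was higher still in Trim71KO_empty, at 79.4, 66.5 and 60.4 CPM, so a high level was not particular to Ago2KO_empty. Dazl was also higher in T6B_WT than in T6B_MUT (0.41, edgeR adjusted p = 0.00938). In Trim71KO_empty, Aass and Lncenc1 were below both groups (means of 3.10 and 16.2 CPM), and Uba1y (15.9 CPM) lay between them. Sfmbt2, a Polycomb protein gene that hosts a large microRNA cluster, was at 27.1, 28.7 and 22.1 CPM against 11.4, 11.03 and 10.9 CPM, and in T6B_WT it was lower than in T6B_MUT (-0.50, adjusted p = 0.00104). Its mean in Trim71KO_empty, 19.6 CPM, lay between the groups.

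The other 6 genes of this set had log2 fold changes from -1.51 (Ccr4, a chemokine receptor) to -1.03 (C78283). They include Cysltr2, a leukotriene receptor, at 9.78, 8.98 and 8.34 against 3.86, 4.13 and 3.82 CPM, and Tgm3, a transglutaminase, at 7.63, 8.27 and 8.21 against 3.66, 3.56 and 3.67 CPM. Ccr4 was under 1 CPM in all 6 libraries and, like Tm9sf5, met the level required only through Trim71KO_empty, where its mean was 35.8 CPM. Pkhd1, the fibrocystin gene, was at 17.5, 16.6 and 11.9 against 7.22, 6.81 and 8.22 CPM. Of the 12 genes, 8 were called higher and 0 lower in Ago2KO than in W by edgeR (10 and 0 at an unadjusted p under 0.05, 8 and 0 with DESeq2), and 7 and 0 of the 10 left without Tm9sf5 and Ccr4. All 12 calls held when any 1 of the 6 libraries was left out. Sfmbt2, Tgm3, Uba1y, Lncenc1, Pkhd1 and 2210409E12Rik overlap other annotated genes, as do Tnrc6b, Fam174b, Anxa3 and Gm21293 above, and since it is not given whether counting used strand, part of their reads may belong to those.

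**Figure D3:**
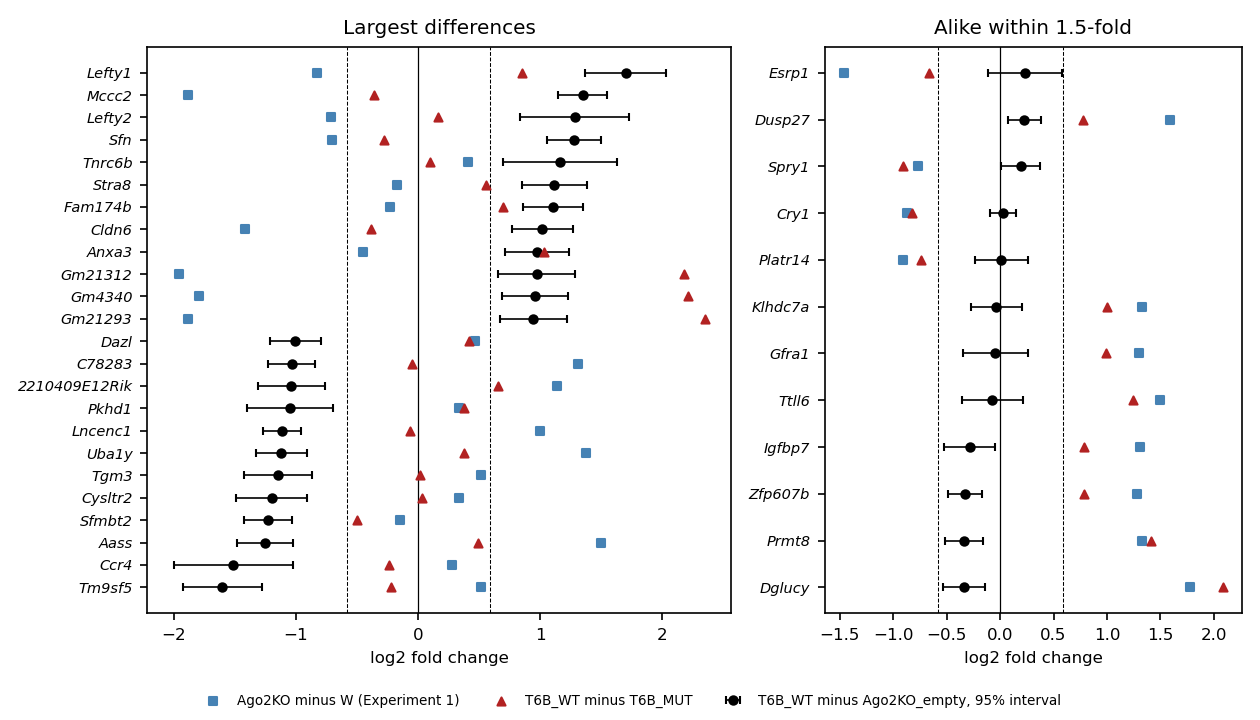
Log2 fold changes of the 24 genes with the largest differences (left) and 12 genes that are alike (right); black points are T6B_WT minus Ago2KO_empty with 95% intervals, blue squares Ago2KO minus W, red triangles T6B_WT minus T6B_MUT, and dashed lines 1.5-fold. On the left most blue squares lie on the side opposite to the black points, and on the right the blue squares and red triangles of a gene share a direction but can differ in size (1.59 and 0.78 for Dusp27). The black intervals on the right lie between the dashed lines because the genes were chosen so.

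A second set of genes changed alike under both interventions. They were taken from the genes called in the same direction in Ago2KO against W and in T6B_WT against T6B_MUT, 2 comparisons with no library in common, and the interval of T6B_WT over Ago2KO_empty had to lie inside 1.5-fold. Among genes whose mean log2 CPM reached 2, this held for 766 of the 857 genes called higher in both (89.4%) and 478 of the 509 called lower in both (93.9%), near the 88.6% of all genes at that level. The bound was part of the choice, so the values below describe these genes. Cry1 (ENSMUSG00000020038, chromosome 10, 85131700 to 85185064, minus strand), a repressor in the circadian clock, was at 41.96, 43.5 and 43.2 CPM in T6B_WT, 43.1, 40.8 and 42.5 CPM in Ago2KO_empty and 76.2, 76.8 and 74.97 CPM in T6B_MUT. The difference between T6B_WT and Ago2KO_empty was 0.02 on the log2 scale (95% interval -0.10 to 0.15), whereas each was lower than T6B_MUT by nearly the same amount (-0.83 and -0.85), and Ago2KO was lower than W (-0.87).

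Spry1, an inhibitor of receptor tyrosine kinase signalling, and Platr14, a non-coding RNA of embryonic stem cells, were the other well-bounded genes on the lower side. Spry1 was at 9.68, 8.21 and 9.65 CPM in T6B_WT, 7.77, 8.27 and 8.03 in Ago2KO_empty and 16.8, 17.4 and 17.3 in T6B_MUT. The epithelial splicing regulator Esrp1 is on this list too, but its interval (-0.12 to 0.58) barely met the bound and exceeded it in 9 of the alternative fits. On the higher side, Prmt8, an arginine methyltransferase of the brain, was at 16.3, 17.1 and 17.4 CPM and 20.5, 21.3 and 22.2 CPM, against 5.89, 6.83 and 6.44 CPM in T6B_MUT. Dglucy, a D-glutamate cyclase, had the largest increase in Ago2KO over W (1.78) and was at 9.09, 9.003 and 9.72 CPM in T6B_WT, 11.04, 13.03 and 11.1 CPM in Ago2KO_empty and 2.10, 2.11 and 2.32 CPM in T6B_MUT. Within the bound, Dglucy, Prmt8 and the zinc finger gene Zfp607b were still called slightly higher in Ago2KO_empty (-0.34, -0.33 and -0.33; adjusted p = 0.0319, 0.019 and 0.011). None of these 3 calls held without T6B_WT replicate 1 (adjusted p = 0.118, 0.104 and 0.0708) or Ago2KO_empty replicate 1 (0.0649, 0.0581 and 0.0603), and those of Dglucy and Prmt8 did not hold without T6B_WT replicate 2 (0.146 and 0.0912), nor that of Dglucy without Ago2KO_empty replicate 2 (0.145). Without T6B_WT replicate 3 or Ago2KO_empty replicate 1, the interval of Dglucy passed the bound. Ttll6, a tubulin polyglutamylase, Klhdc7a and Gfra1, the receptor of GDNF, differed by only -0.07, -0.04 and -0.05. Dusp27 and Igfbp7 completed the list, with differences of 0.23 and -0.28, and Dusp27 was called higher in T6B_WT without Ago2KO_empty replicate 3 (0.28, adjusted p = 0.0147).

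Experiment 1 shares no library with Experiment 2, so its Ago2KO genes give a view of the comparison chosen without any plasmid. Of the genes higher in Ago2KO than in W (10.2% of those tested there), 2146 were tested in Experiment 2. Among them 337 (15.7%) were higher in Ago2KO_empty than in T6B_WT, beside 4.95% of all genes. Higher in T6B_WT were 86 (4.01%), near the 4.05% of all genes. An interval inside 1.5-fold was found for 74.1%, beside 60.3% of all genes and 88.6% of those whose mean log2 CPM reached 2. The sets were not matched for level. The median log2 fold change of T6B_WT over Ago2KO_empty in the raised genes was -0.11, beside -0.02 for all genes tested. Against T6B_MUT the medians of these genes were 0.28 in T6B_WT and 0.39 in Ago2KO_empty, and their median in Ago2KO over W was 0.39. The called genes among them were mostly higher in Ago2KO_empty.

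The called genes among those lower in Ago2KO than in W mostly went the other way. Of 1635 such genes, 221 (13.5%) were higher in T6B_WT and 40 (2.45%) were higher in Ago2KO_empty, beside 4.05% and 4.95% of all genes. Their median log2 fold change of T6B_WT over Ago2KO_empty was 0.08. Against T6B_MUT their medians were -0.18 in T6B_WT and -0.27 in Ago2KO_empty, and their median in Ago2KO over W was -0.30. Inside 1.5-fold were 80.1%, again above the 60.3% of all genes and below the 88.6% of those whose mean log2 CPM reached 2. Without Ago2KO_empty replicate 2 the shares were 13.5% for the raised genes (289) and 12.9% for the lowered genes (211), beside 3.82% and 3.86% of all genes. The counts of 337 and 221 became 155 and 109 without Ago2KO_empty replicate 1, and 156 and 100 without T6B_WT replicate 2. Without T6B_WT replicate 1, 169 of the raised genes were called. Without Ago2KO_empty replicate 3 the counts were 555 (25.8%) and 364 (22.2%), but the shares of all genes also rose, to 10.4% and 7.70%. Among genes with a change of at least 1 log2 unit in Ago2KO, 62 of 177 raised genes (35.0%) were higher in Ago2KO_empty and 5 higher in T6B_WT, and 22.0% had an interval inside 1.5-fold. Of 134 lowered genes of that size, 36 (26.9%) were higher in T6B_WT and 2 higher in Ago2KO_empty, with 19.4% inside the bound. The raised genes of that size had medians of 0.73 in T6B_WT and 1.17 in Ago2KO_empty against T6B_MUT, and 1.28 in Ago2KO over W. For the lowered genes of that size these medians were -0.003, -0.28 and -1.47. The strong lowering in Ago2KO was thus mostly absent from Ago2KO_empty against T6B_MUT, and the reason was not tested. Read the other way, 32.2% of the 1047 genes called higher in Ago2KO_empty and tested in both experiments were raised in Ago2KO, beside 10.4% of all genes, and 25.9% of the 852 genes called higher in T6B_WT were lowered there, beside 7.94%.

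**Figure D4:**
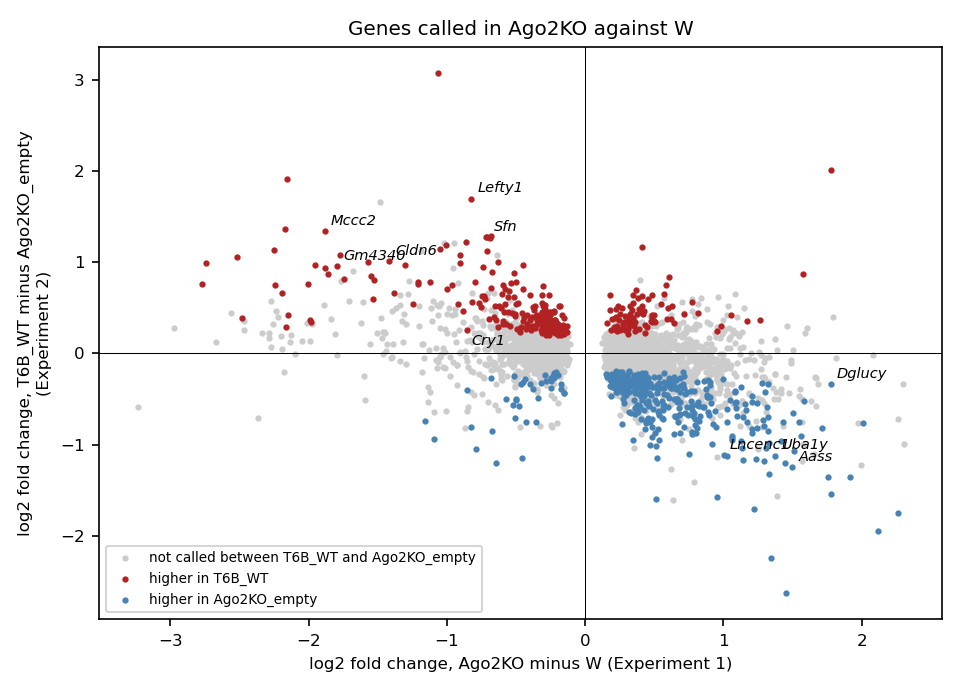
Genes called in Ago2KO against W: log2 fold change in that comparison (horizontal) and of T6B_WT over Ago2KO_empty (vertical), 1 point per gene. Blue points (337 of the raised genes on the right) and red points (221 of the lowered genes on the left) are called in Experiment 2, and grey points are not.

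Published targets of the embryonic stem cell microRNAs were followed next. MicroRNAs of the miR-290 and miR-302 clusters share the seed AAGUGCU at bases 2 to 8, here in capitals, while miR-20a of the miR-17 cluster has the same core moved by 1 base. The mature sequences are from RefSeq (GRCm38.p6), written 5′ to 3′, and are shown because their seeds define the sites counted below.
miR-294-3p: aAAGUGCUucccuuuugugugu
miR-291a-3p: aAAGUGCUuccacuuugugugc
miR-302b-3p: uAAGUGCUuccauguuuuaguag
miR-20a-5p: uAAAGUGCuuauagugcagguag
let-7a-5p: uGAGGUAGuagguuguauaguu

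Of 18 tested targets on the list for these microRNAs, 3 (16.7%) were higher in T6B_WT and 2 (11.1%) were higher in Ago2KO_empty, beside 4.05% and 4.95% of all genes. The interval lay inside 1.5-fold for 11 (61.1%), beside 60.3% of all genes and 88.6% of those whose mean log2 CPM reached 2. The median log2 fold change of the 18 targets was 0.09, beside -0.02 for all genes. It was 0.17 without Ago2KO_empty replicate 2 and 0.13 without T6B_WT replicate 2. Against T6B_MUT the medians were 0.36 in T6B_WT and 0.27 in Ago2KO_empty, and in Ago2KO against W it was 0.27. A match to the seed, AGCACTT in the 3′ UTR (GENCODE M21, GRCm38), was found in 15 of the 18, compared with 16.9% of all tested genes with a 3′ UTR. The windows below show the match in capitals with 7 bases on each side, 5′ to 3′ on the mRNA strand, for the 5 targets that differed between the groups. A match describes the sequence only.
Lats2, chr14:57691087-57691093, minus strand: tggaaagAGCACTTattttgt
Lats2, chr14:57690988-57690994, minus strand: atctgatAGCACTTgtccaca
Lefty1, chr1:180938213-180938219, plus strand: tatgcgaAGCACTTacatgta
Lefty2, chr1:180897917-180897923, plus strand: cagtttaAGCACTTacatggg
Rbl2, chr8:91123830-91123836, plus strand: tcaataaAGCACTTataaatt
Ei24, chr9:36779889-36779895, minus strand: tttttttAGCACTTgccagct

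Genes with a match thus went in both directions. Lats2 (ENSMUSG00000021959, chromosome 14, 57689662 to 57758388, minus strand), a kinase of the Hippo pathway with the 2 matches shown, was at 21.2, 19.3 and 19.2 CPM in T6B_WT, 14.5, 15.03 and 12 CPM in Ago2KO_empty and 9.81, 9.47 and 9.29 CPM in T6B_MUT. Both groups were above T6B_MUT, T6B_WT more so (T6B_WT over Ago2KO_empty 0.52, SE 0.10, edgeR adjusted p = 0.00263; against T6B_MUT 1.06 and 0.54). Rbl2, a relative of the retinoblastoma protein, was at 16.8, 14.96 and 15.7 CPM in T6B_WT and 22.7, 20.6 and 17.8 CPM in Ago2KO_empty (-0.37, adjusted p = 0.0187), with T6B_MUT at a mean of 11.9 CPM. The p53-induced gene Ei24 was at 153, 152 and 157 CPM against 179.7, 172 and 181 CPM (-0.21, adjusted p = 0.0303), and T6B_MUT at 109.5. Both calls were lost without T6B_WT replicate 2 (adjusted p = 0.118 and 0.16) or Ago2KO_empty replicate 1 (0.142 and 0.146), that of Rbl2 also without T6B_WT replicate 3 (0.0504), and that of Ei24 also without T6B_WT replicates 1 and 3 (0.123 and 0.0585). Cdkn1a, the cell cycle inhibitor p21 and a classic target, was at 9.29, 8.93 and 9.80 CPM against 8.34, 10.9 and 7.58 CPM, a difference of 0.06 with a 95% interval of -0.27 to 0.39.

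Across the transcriptome, 2463 tested genes had a 3′ UTR with the AGCACTT match, and 206 of them (8.36%) were higher in Ago2KO_empty and 79 (3.21%) higher in T6B_WT, beside 5.36% and 5.46% of genes without a match. Among genes with a UTR above the overall median length these shares were 8.72% and 3.20% with a match and 6.46% and 4.59% without. Their median log2 fold change of T6B_WT over Ago2KO_empty was -0.07, against -0.02 for genes without a match. UTR length moved with this: genes with a match had a median UTR of 2483 bases, and among genes with a UTR above the overall median length the medians were -0.08 with and -0.05 without a match. Without Ago2KO_empty replicate 2 the medians were -0.02 with a match and 0.01 without. They were -0.095 and -0.0005 without replicate 3 of that group, and -0.07 and -0.01 without its replicate 1. The matches of miR-20a-5p (GCACTTT), miR-92a-3p (GTGCAAT), miR-16-5p (TGCTGCT), miR-130a-3p (TTGCACT) and let-7a-5p (CTACCTC) gave medians of -0.07, -0.07, -0.05, -0.08 and -0.05, each below that of genes without the match (-0.02 for all 5). Without Ago2KO_empty replicate 2 they were -0.02, -0.0008, -0.0042, -0.02 and 0.004, against 0.01, 0.002, 0.0039, 0.0044 and 0.0015 without the match, so the difference shrank for all 5 and turned for let-7a-5p. Without Ago2KO_empty replicate 3 they were -0.086, -0.088, -0.056, -0.092 and -0.059, against -0.0036, -0.0091, -0.0028, -0.0062 and -0.0097, so the difference grew for all 5. Without replicate 1 of that group the match medians were -0.06, -0.05, -0.04, -0.06 and -0.05, each below that without a match. With all libraries, the miR-16-5p medians among genes with long UTRs were -0.059 with and -0.053 without a match. Those of let-7a-5p were -0.064 and -0.053. The gap was wider for miR-20a-5p (-0.081 and -0.048), miR-92a-3p (-0.082 and -0.053) and miR-130a-3p (-0.091 and -0.048). Of the 24 genes with the largest differences, a match to AGCACTT was found in 3 of the 12 higher in T6B_WT (all 12 with a UTR) and in none of the 9 with a UTR among those higher in Ago2KO_empty.

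The gene lists differed in how their members divided between the groups, as the plot of called genes per list shows. For these lists, read against 4.05% and 4.95% of all genes, counts and medians are descriptions. A call of a single member named below held in every fit that left out 1 library, unless stated. Of 20 epithelial junction and keratin genes, 9 were higher in T6B_WT and 0 were higher in Ago2KO_empty, with a median log2 fold change of 0.27 (12 and 1 at an unadjusted p under 0.05, 10 and 0 with DESeq2). The count was 6 to 10 when single libraries were left out, 6 without T6B_WT replicate 2, 10 without Ago2KO_empty replicate 2, and 2 genes were called higher in Ago2KO_empty without its replicate 3. In addition to Sfn and Cldn6, the keratin genes Krt8 (21.3, 24.03 and 19.8 against 14.9, 14.7 and 15.9 CPM) and Krt18 (12.4, 15.3 and 12.9 against 7.50, 7.88 and 9.25 CPM) and Bspry (4.50, 4.96 and 3.85 against 2.45, 2.08 and 2.86 CPM) were higher in T6B_WT, by 0.52, 0.72 and 0.85. Cdh1, the E-cadherin of the same junctions, was at 129.9, 130.0 and 144 against 117, 157 and 98.9 CPM (0.11, adjusted p = 0.647). Against T6B_MUT the list's median was 0.01 in T6B_WT and -0.25 in Ago2KO_empty. In Ago2KO against W it was -0.39, with 10 of 19 genes lower and 2 higher, beside 7.78% and 10.2% of all genes. Krt8, Krt18 and Plet1 also stand on the trophoblast list, of which they were the 3 genes higher in T6B_WT among 9 tested.

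**Figure D5:**
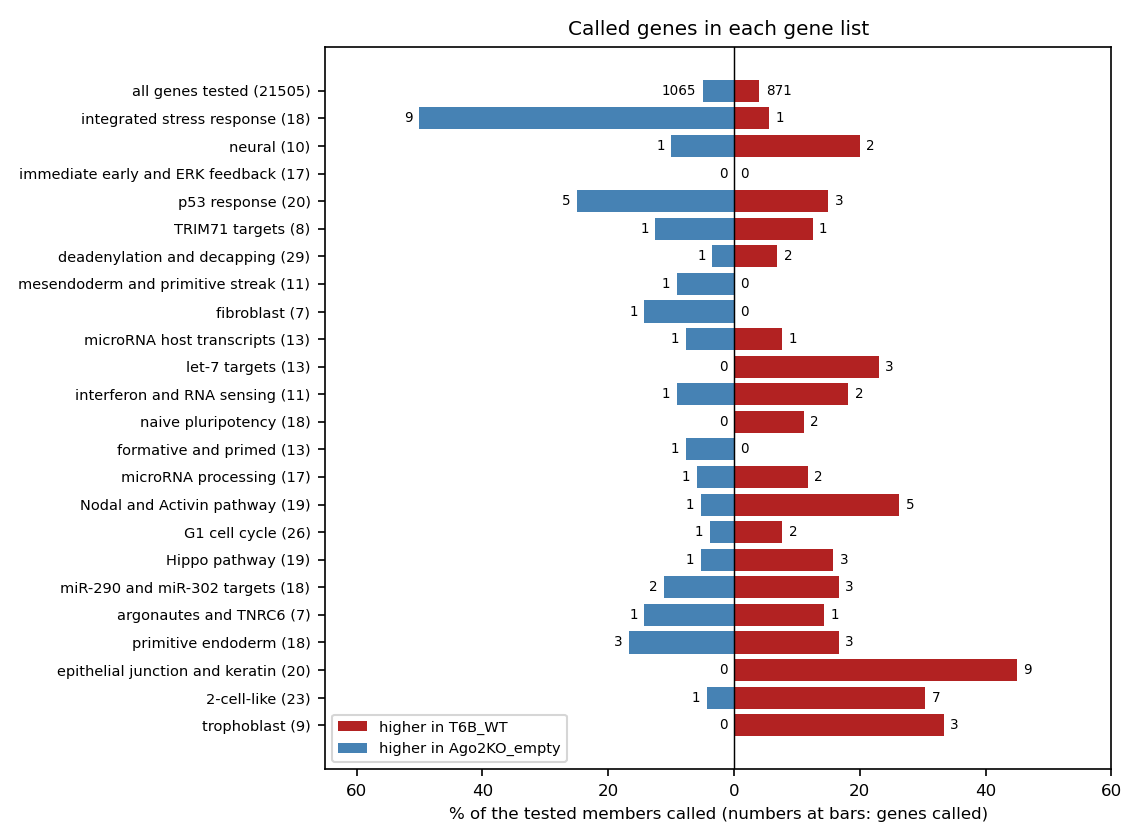
Share of the tested members of each gene list called higher in T6B_WT (red, to the right) or higher in Ago2KO_empty (blue, to the left), in percent; numbers at the bars are genes and those in brackets the members tested, with all genes at the top. The epithelial list has 9 genes to the right and 0 to the left, and the integrated stress response list 9 to the left and 1 to the right.

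The integrated stress response list, genes downstream of the transcription factor ATF4, went the other way. Of 18 genes, 9 were higher in Ago2KO_empty and 1, the chaperone gene Hspa5, was called higher in T6B_WT (adjusted p = 0.0202; 0.111, 0.0648 and 0.107 without T6B_WT replicate 2, T6B_WT replicate 3 or Ago2KO_empty replicate 1), with a median of -0.28. This count rested on single libraries: it was 1 without Ago2KO_empty replicate 1, 3 and 4 without T6B_WT replicates 3 and 2, 4 without T6B_WT replicate 1, and 11 without Ago2KO_empty replicate 2. Vldlr, a lipoprotein receptor gene, kept its call in each of these fits, at 17.02, 14.5 and 12.2 CPM in Ago2KO_empty against 7.39, 7.90 and 7.72 CPM in T6B_WT (-0.93, adjusted p = 0.000466). Cebpb, a transcription factor, was at 7.28, 5.88 and 6.83 against 4.54, 4.69 and 4.08 CPM (-0.59, adjusted p = 0.0134; 0.0513 without T6B_WT replicate 3 and 0.0861 without Ago2KO_empty replicate 1). Atf4 itself, named for its role, was at 393, 341 and 411 against 360.2, 375 and 359.6 CPM (-0.07, adjusted p = 0.637). Against T6B_MUT the medians of the list were -0.23 in T6B_WT and 0.03 in Ago2KO_empty, and -0.22 in Ago2KO against W.

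The 2-cell-like list, genes of the early embryo that rare embryonic stem cells express, had 7 of 23 members higher in T6B_WT and 1 higher in Ago2KO_empty, with a median of 0.41 (4 to 8 higher genes when single libraries were left out, 4 without T6B_WT replicate 2; 0 higher in Ago2KO_empty without T6B_WT replicates 1 or 2 or Ago2KO_empty replicate 1). Both groups were far above T6B_MUT: 21 of 23 genes were higher in each (9.29% of all genes for T6B_WT and 16.4% for Ago2KO_empty), and the medians were 2.21 for T6B_WT and 1.67 for Ago2KO_empty. Zscan4c, a telomere-associated gene of that state, was at 25.7, 27.7 and 26.2 CPM in T6B_WT, 23.98, 19.1 and 21.8 CPM in Ago2KO_empty and 5.75, 5.95 and 5.44 CPM in T6B_MUT. Usp17lb, a deubiquitinase, was at 3.93, 4.44 and 3.74 CPM against 2.01, 1.83 and 1.66 CPM (1.14, adjusted p = 0.00553). The knockout without plasmid went in the opposite direction: in Ago2KO against W, 13 of 19 genes were lower, beside 7.78% of all genes, with a median of -1.61. Zscan4 and Usp17l genes belong to families of near-identical copies, and counts may be split among them.

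Of 19 genes of the Nodal and Activin pathway, 5 (26.3%) were higher in T6B_WT and 1 in Ago2KO_empty (2 without its replicate 3), with a median of 0.06. The ligand Nodal was at 58.2, 60.97 and 55.96 against 53.8, 53.4 and 59.4 CPM (0.07, 95% interval -0.07 to 0.22). The inhibin subunit gene Inhbb was higher in T6B_WT (123, 129 and 124 against 88.8, 103 and 98.99 CPM, 0.37), and the Activin antagonist Fst higher in Ago2KO_empty (24.8, 20.3 and 22.9 against 14.1, 14.5 and 15.8 CPM, -0.61, adjusted p = 0.000704). Of 19 Hippo pathway genes, 3 (15.8%) were higher in T6B_WT and 1 in Ago2KO_empty, with 13 of 19 log2 fold changes above 0 (6 and 1 without Ago2KO_empty replicate 2, 6 and 3 without replicate 3, 4 and 0 without replicate 1, 4 and 0 or 3 and 0 without T6B_WT replicates 1 or 2, 6 and 2 with DESeq2). Besides Lats2 these included the pathway's response genes Ccn1 (15.6, 15.5 and 16.7 against 9.88, 9.83 and 9.22 CPM, 0.72) and Ccn2 (14.7, 16.1 and 16.5 against 10.96, 11.6 and 9.97 CPM, 0.54). Their means in T6B_MUT were 7.03 and 8.11 CPM, below all 6 libraries.

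The p53 response list divided, with 3 of 20 genes higher in T6B_WT and 5 higher in Ago2KO_empty (0 of the latter without T6B_WT replicate 1, T6B_WT replicate 2 or Ago2KO_empty replicate 1, and 3 without T6B_WT replicate 3). Against T6B_MUT its medians were 0.30 for T6B_WT and 0.45 for Ago2KO_empty, and 0.28 in Ago2KO against W. Btg2, an antiproliferative partner of the deadenylase, was at 79.6, 81.6 and 82.7 CPM in T6B_WT, 58.7, 48.6 and 57.9 CPM in Ago2KO_empty and 54.8, 53.6 and 55.7 CPM in T6B_MUT (0.56, adjusted p = 0.000259). Of 13 let-7 targets, 3 were higher in T6B_WT and 0 in Ago2KO_empty (4 and 1 at an unadjusted p under 0.05, 3 and 0 with DESeq2, 2 without T6B_WT replicate 1 or 2, 1 without Ago2KO_empty replicate 1; 1 higher in Ago2KO_empty without its replicate 3), led by the RNA-binding protein gene Igf2bp3, at 122, 127 and 131 CPM against 73.2, 80.6 and 71.8 CPM (0.75, SE 0.07, adjusted p = 2.55e-06). Among 26 G1 cell cycle genes, 2 were higher in T6B_WT (4 with DESeq2, 7 without Ago2KO_empty replicate 2, 1 without T6B_WT replicate 2 or Ago2KO_empty replicate 1), among them cyclin E2 (Ccne2, 22.1, 23.9 and 28.2 against 14.1, 15.6 and 16.1 CPM, 0.70). Higher in Ago2KO_empty was 1, Rbl2 (2 genes without Ago2KO_empty replicate 3, and 0 without Ago2KO_empty replicate 1, T6B_WT replicate 2 or T6B_WT replicate 3). Of 11 interferon and RNA sensing genes, 2 were higher in T6B_WT (1 without T6B_WT replicate 2 or Ago2KO_empty replicate 1), among them Irf1 (22.2, 25.1 and 22.5 against 13.98, 16.3 and 15.6 CPM, 0.60), and 1, Ddx58, which encodes the sensor RIG-I, was higher in Ago2KO_empty (51.5, 49.7 and 52.1 against 35.7, 39.4 and 38.2 CPM, -0.44).

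Genes of microRNA processing and pluripotency are read against the 88.6% that met the bound of 1.5-fold among all genes whose mean log2 CPM reached 2. Of 17 microRNA processing genes, 16 had an interval inside 1.5-fold, 2 (Limd1 and Hsp90ab1) were called higher in T6B_WT and 1 (Tut7) higher in Ago2KO_empty. None of the 3 calls held without T6B_WT replicate 2 (adjusted p = 0.102, 0.0546 and 0.177) or Ago2KO_empty replicate 1 (0.101, 0.0805 and 0.231), that of Hsp90ab1 was also lost without T6B_WT replicate 3 (0.0611), and that of Tut7 without T6B_WT replicates 1 and 3 (0.076 and 0.0779). Without Ago2KO_empty replicate 3 the counts were 3 and 2. Dicer1, which cuts microRNA precursors, was at 178, 177 and 184 CPM in T6B_WT and 187, 225 and 164 CPM in Ago2KO_empty (-0.10, 95% interval -0.27 to 0.08; 0.04 without Ago2KO_empty replicate 2). Of 29 deadenylation and decapping genes, 18 were inside the bound, 2 were called higher in T6B_WT and 1 higher in Ago2KO_empty. These counts were 3 and 8 without Ago2KO_empty replicate 3, and 1 and 0 without Ago2KO_empty replicate 1 or any 1 of the T6B_WT libraries. The pluripotency factors Pou5f1 (816, 861 and 780.0 against 727, 663 and 848 CPM), Nanog (392.1, 405 and 429 against 391.9, 427 and 403 CPM) and Sox2 (353, 354 and 371 against 370.2, 332 and 374 CPM) are the defining markers of the labelled cell type and were abundant in all 6 libraries. Their 95% intervals were -0.03 to 0.30, -0.12 to 0.13 and -0.14 to 0.15 on the log2 scale, and Pou5f1 was called higher in T6B_WT without Ago2KO_empty replicate 3 (0.25, adjusted p = 0.0218). Of 18 naive pluripotency genes, 15 were inside 1.5-fold and 2 were higher in T6B_WT (4, and 3 higher in Ago2KO_empty, without Ago2KO_empty replicate 3; 2 and 2 with DESeq2; 1 without T6B_WT replicates 2 or 3 or Ago2KO_empty replicates 1 or 2), among them Fgf4 (180.3, 188 and 189.5 against 139, 129 and 149.5 CPM, 0.42).

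Markers of fibroblasts and of the primitive streak were low in both groups. Summed over the 8 listed genes with counts, of which 7 were tested, fibroblast markers were at 23.3 to 26.3 CPM in T6B_WT and 26.3 to 29.0 CPM in Ago2KO_empty. Thy1 alone was called (3.46, 3.86 and 3.77 CPM in Ago2KO_empty against 2.33, 2.10 and 1.90 CPM). Mesendoderm and primitive streak markers (14 genes with counts, 11 tested) summed to 34.7 to 35.0 and 43.0 to 47.6 CPM, and Fst, given above, was the one called. Of 10 neural markers, Sox1 (14.9, 13.9 and 14.2 against 8.85, 9.94 and 7.82 CPM, 0.69) and Nes (0.39; adjusted p = 0.0701 without T6B_WT replicate 3) were higher in T6B_WT and Ncam1 was higher in Ago2KO_empty (34.1, 40.2 and 32.5 against 24.5, 25.1 and 24.3 CPM, -0.53). Of 18 primitive endoderm markers, 3 were called in each direction. The counts were 3 higher in T6B_WT and 0 higher in Ago2KO_empty without Ago2KO_empty replicate 2, 1 and 0 without its replicate 1, 2 and 0 without T6B_WT replicate 3, and 0 and 0 without T6B_WT replicate 2. Against T6B_MUT the medians of this list were -0.05 in T6B_WT and -0.17 in Ago2KO_empty. In Ago2KO against W the median was -1.26, with 14 of 18 genes lower and 0 higher, beside 7.78% and 10.2% of all genes. Sox17, a defining factor of that lineage, stood at 1.74, 2.12 and 2.05 CPM in T6B_WT and 1.13, 1.15 and 1.247 CPM in Ago2KO_empty (adjusted p = 0.00853; 0.0512 without T6B_WT replicate 2). In total RNA from a culture, more cells of a type and more RNA per cell cannot be told apart. None of the 17 immediate early and ERK feedback genes was called by edgeR, against 4 higher in T6B_WT and 7 higher in Ago2KO_empty at an unadjusted p under 0.05 and 0 with DESeq2. Without Ago2KO_empty replicate 3, 1 was called higher in T6B_WT and 4 higher in Ago2KO_empty. Their median was -0.14, and 11 were inside 1.5-fold.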

How the data were processed

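Total RNA was sequenced in 3 libraries per group, and the series' design text calls the replicates biological. Per the submitters' processing notes, bcl2fastq 2.17, STAR 2.7.3a and the build GRCm38 (mm10) were used, and the annotation and use of strand in counting are not given in the sources used here. The authors deposited, per the file headers, raw counts, which are not normalized, and RPKM for 22512 genes with their lengths in bases. Counts entered every test, and RPKM served only to check units. Coordinates and 3′ UTRs are from GENCODE M21, which holds 22480 of the gene IDs.

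The 12 libraries of Experiment 2 and the 9 of Experiment 1 were each fitted with edgeR 4.0.16 in R 4.3.3 (robust quasi-likelihood F test, TMM, Benjamini-Hochberg adjustment, filterByExpr with a minimum count of 10). This leaves a median SE of 0.12 for the main comparison. Intervals of 95% come from the fit, per gene and unadjusted. The code was tested on simulated counts. No 2 replicates agreed within sampling noise. Named genes are the 12 highest and 12 lowest called genes whose mean log2 CPM reaches 2 and whose groups do not overlap, 12 alike genes with the largest Ago2KO change, up to 4 called genes per list and direction, and fixed core genes; Atf4, Nodal, Cdkn1a and Cdh1 were added for their roles. Members and lists were chosen with earlier results of these data known.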

Additional observations from a re-analysis of the deposited data

How the results depend on the processing

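The number of genes called between T6B_WT and Ago2KO_empty was 1936. It was 926 when the 2 groups were fitted alone, 206 where 1 log2 unit was also required, and 731 to 3969 when 1 library was left out (731 without T6B_WT replicate 2, 733 and 3969 without Ago2KO_empty replicates 1 and 3). It stayed within 1.5 times with DESeq2 (2110), DESeq2's size factors (1934), no filter (1916) and a filter on CPM (1953). For T6B_WT against T6B_MUT, 3437 genes became 5632 with the 2 groups alone, 472 at 1 log2 unit, and 2045 to 2497 with 1 library left out. For Ago2KO_empty against T6B_MUT, 6201 became 933 and 3894 to 8083, and for Ago2KO against W, 3811 became 340 and 2566 to 3676. The number of genes within 1.5-fold, 12967, was 6633 at the tighter of the other bounds tried and 11912 to 12943 with 1 library left out.

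No gene named as called changed direction. Small differences that were not called changed sign when 1 library was left out: Ago4, from -0.05 to 0.036 without T6B_WT replicate 3 and to 0.013 without Ago2KO_empty replicate 1; Tnrc6a, to -0.05 without Ago2KO_empty replicate 3; Dicer1, to 0.04 without Ago2KO_empty replicate 2; and likewise Gfra1, Klhdc7a, Platr14, Ttll6, Nanog and Sox2, none beyond 0.10 in the other direction. Replicate numbers do not pair the samples: same-numbered deviations of T6B_WT and Ago2KO_empty correlated at 0.02, -0.17 and -0.13. With the replicate block, 1765 genes were called. The causes of these shifts were not tested. Depth limits low genes: under a mean log2 CPM of 2, 19.5% had intervals inside 1.5-fold.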
